A study of Mus musculus with 6 samples.

Results

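Lysosomal transcripts were read in mouse cells labelled primary microglia that had shared a dish with neutrophils from the injured spinal cord. The set comprised 46 genes among the 55335 identifiers of the expression table: 16 genes of the vacuolar proton pump (V-ATPase), 10 proteases, 7 glycosidases and lipases, 5 lipid transfer and activator proteins with granulin among them, 4 lysosomal membrane proteins, 3 factors of the MiT/TFE family and the autophagy receptor Sqstm1. The genes were found by symbol. They were chosen by name, with the difference between KO and WT neutrophils in these same 6 libraries already known, so that every difference of a set gene given here is a description and carries no p-value.

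Primary microglia came from the brains of newborn C57BL/6 mice. They were shaken off mixed glial cultures on day 14 and were wild type at Cd177 in every sample. Neutrophils were drawn magnetically from spinal cord lesions 3 days after injury (3 dpi), either from Cd177 WT mice (WT neutrophils, WT co-cultures, 3 libraries) or from Cd177-/- mice (KO neutrophils, KO co-cultures, 3 libraries). After 24 h together, the cells were collected by flow sorting as Ly6G- cells, and their RNA was sequenced. By the labels, all 6 libraries come from microglia cultured with neutrophils from injured tissue, and microglia kept alone were not analysed here. Nothing in the labels says that the 3 libraries of a group came from separate cultures, so p-values measure only the spread between these libraries, which may be technical. The values are fragments per kilobase of transcript, scaled to the mapped fragments of each library (FPKM), and in bulk RNA fewer cells of a type and less RNA per cell cannot be told apart.

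Lysosomes are acidic compartments in which phagocytes break down what they take up. The V-ATPase pumps protons across the lysosomal membrane, with a cytosolic sector (V1) that splits ATP and a membrane sector (V0) that carries the protons. Cathepsins, glycosidases and lipases then work at low pH, and the MiT/TFE transcription factors are known to bind E-box motifs containing CACGTG near the start of many lysosomal genes.

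The libraries were close within groups. Pearson's r of log2(FPKM + 1) across genes, which are not independent replicates, was 0.988 to 0.989 within and 0.956 to 0.959 between groups. FPKM summed to 314085 to 315632 with WT and 323588 to 326868 with KO neutrophils, and mitochondrially encoded genes held 11.1% to 11.3% and 14.3% to 14.6% of these sums. Cd177 stayed under 0.5 FPKM in every library (0.477, 0.113 and 0.151 with WT, 0.109, 0.0217 and 0.0845 with KO neutrophils) and so does not check the genotype of the neutrophils. Of 18 microglia and macrophage markers, 9 were under 1 FPKM in all libraries, among them P2ry12, P2ry13, Tmem119, Aif1, C1qb, C1qc and, listed at 0, C1qa, Sall1 and Fcrls, whereas Cd68 and Tyrobp exceeded 100 FPKM. Defining markers of microglia were thus at or near 0, and the label rests on the culture and sorting described. The methods give the animals as male. Xist had 106 to 126 FPKM, and Ddx3y, Kdm5d, Uty and Eif2s3y on the Y chromosome were listed at 0 in all 6 libraries, which goes against that. The 18 markers summed to 793 to 832 FPKM in WT and 931 to 970 FPKM in KO co-cultures, but not all moved that way. Mean FPKM went from 372 to 491 for Cd68, itself a lysosomal gene of the wider lists, and from 12.0 to 28.0 for Trem2. It went from 101 to 39.3 for Adgre1 and from 2.74 to 1.14 for Cx3cr1, and Itgam overlapped between groups. Of 18 neutrophil markers, 16 were under 1 FPKM in all libraries, with Ly6g, Mpo, Elane and S100a9 listed at 0. The neutrophil list summed to 118 to 122 FPKM against 1.84 to 2.75 FPKM, and without Lcn2 and Mmp9 to 2.06 to 2.37 FPKM against 1.02 to 1.38 FPKM. All 16 markers of astrocytes, oligodendrocytes and neurons and all 8 of fibroblasts and endothelium were under 1 FPKM. The part of these shifts in the lysosomal values was not tested.

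CACGTG was searched in promoter windows from RefSeq (mouse build GRCm38.p6), each running from 250 bases before to 50 bases after a gene's start. The motif is its own reverse complement, so 1 search covers both strands. Of the 38 set genes with a window, 12 (31.6%) held CACGTG, against 8.09% of the 27025 symbols with a window. TCACGTG, which contains it, was searched on both strands and was in 11 of the 38 (28.9%, against 4.29% of all symbols), and the palindrome TCACGTGA, added after the shorter forms had been counted, was in 7 (18.4%, against 1.12%). The related TCATGTG, searched on both strands, was in 6 (15.8%, against 4.31%). The windows of the 4 CACGTG genes with the largest differences in level, Lgmn, Gla, Ctsd and Atp6v1a, are shown up to the start, because they let the sites be compared between 3 genes that were higher and 1 that was lower with KO neutrophils. All lie on the minus strand, at chr12:102439093-102439342 for Lgmn, chrX:134601006-134601255 for Gla, chr7:142387828-142388077 for Ctsd and chr16:44139260-44139509 for Atp6v1a. They are written 5′ to 3′ with CACGTG in capitals. Each gene in GENCODE M21 has a transcript that begins further upstream, within or beyond the stretch shown.
Lgmn: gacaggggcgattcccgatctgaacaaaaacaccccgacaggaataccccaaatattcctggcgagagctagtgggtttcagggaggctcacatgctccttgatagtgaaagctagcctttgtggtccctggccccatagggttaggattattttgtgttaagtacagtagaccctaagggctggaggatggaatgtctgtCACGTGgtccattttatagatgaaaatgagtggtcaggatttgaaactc
Gla: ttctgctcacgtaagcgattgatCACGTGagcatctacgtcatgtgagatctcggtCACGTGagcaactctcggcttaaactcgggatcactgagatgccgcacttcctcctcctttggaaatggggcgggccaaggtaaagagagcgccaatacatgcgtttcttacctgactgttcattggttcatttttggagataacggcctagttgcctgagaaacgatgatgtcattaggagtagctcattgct
Ctsd: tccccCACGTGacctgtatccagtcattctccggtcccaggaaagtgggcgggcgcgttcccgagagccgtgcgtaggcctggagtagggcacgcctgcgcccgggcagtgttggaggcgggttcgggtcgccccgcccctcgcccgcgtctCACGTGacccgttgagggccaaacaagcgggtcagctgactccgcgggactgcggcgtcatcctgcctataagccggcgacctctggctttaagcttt
Atp6v1a: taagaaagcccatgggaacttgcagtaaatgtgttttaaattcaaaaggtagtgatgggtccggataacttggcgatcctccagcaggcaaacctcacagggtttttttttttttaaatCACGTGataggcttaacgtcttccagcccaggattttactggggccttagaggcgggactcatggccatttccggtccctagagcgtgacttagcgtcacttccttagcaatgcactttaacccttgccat

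The motif began 49 bases before the start of Lgmn and 131 bases before that of Atp6v1a. Gla held it at 227 and 194 bases and Ctsd at 245 and 98 bases before the start. Among the 12 set genes with CACGTG, 6 were called higher, 3 lower and 3 not called with KO neutrophils, beside 21 higher and 10 lower of the 45 set genes tested, and nothing is read from this count. A match is a stretch of letters and does not show that a factor was bound.

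To describe how lysosomal transcripts differed between the neutrophil genotypes, KO was compared with WT by limma on log2(FPKM + 1), and a gene counted as called when its adjusted p over all genes tested was under 0.05. Differences are given on that log2 scale, KO minus WT, and understate the change of genes with low levels. A mean of at least 1 FPKM was required, which 45 of the 46 genes had. Cathepsin H (Ctsh) did not, with 0.518, 0.461 and 0.282 FPKM in WT and 0.535, 0.581 and 0.516 FPKM in KO co-cultures, and Tfeb passed only through its KO level. Of the 45, 21 (46.7%) were called higher, Tfeb among them, 10 (22.2%) were called lower and 14 were not called. Over all 11395 genes tested, 24.5% were called higher and 18.8% lower, together 43.3%. With every library rescaled to the same sum (TPM scale), 45.1% of all calls were higher, against 56.6% on the deposited scale, and the set had 19 genes higher and 10 lower. The lysosomal genes were abundant, and abundant genes were called more often. Of the 41 set genes that averaged at least 10 FPKM, 29 (70.7%) were called, against 54.6% of all genes at that level. The 3 KO libraries lay wholly above or below the 3 WT libraries for 35 of the 45 genes, against 55.8% of all genes tested. Because the set was chosen on this contrast, nothing is read from these shares. Some set genes share exon bases with a neighbour in GENCODE M21, on the same strand for Ctsd, Ctsl and Glb1 and on the opposite strand for Sqstm1, Hexa, Lamp1, Grn, Ctsz, Ctsa, Ctsb, Npc1, Atp6v0b, Atp6v1e1 and Atp6v1h, and also for Ctsl. Whether reads were counted by strand is not given in the sources used here, so the values of these genes may include reads of their neighbours.

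The differences were mostly small. Their median was 0.13 on the log2 scale, against 0.02 for all genes tested, and they ran from -0.998 for Sqstm1 to 2.08 for Atp6v0d2. On the TPM scale the median of the set was 0.08 and that of all genes -0.02. The set median also depended on single libraries, being 0.07 without KO replicate 1, 0.08 without WT replicate 3 and 0.17 without KO replicate 2. Absolute differences of at least 0.5 were found for 8 genes. Higher were Atp6v0d2, Lipa, Atp6v1b2, Tfeb, Lgmn and Scarb2, and lower were Sqstm1 and Npc2. Of these, Tfeb passed the filter on low values only through its KO level. Only Atp6v0d2 passed 2-fold on the log2(FPKM + 1) scale. By the ratio of mean FPKM, Tfeb (2.25, KO to WT) and Sqstm1 (2.001, WT to KO) passed it as well. On the log2 scale 13 genes differed by less than 0.1.

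**Figure D1:**
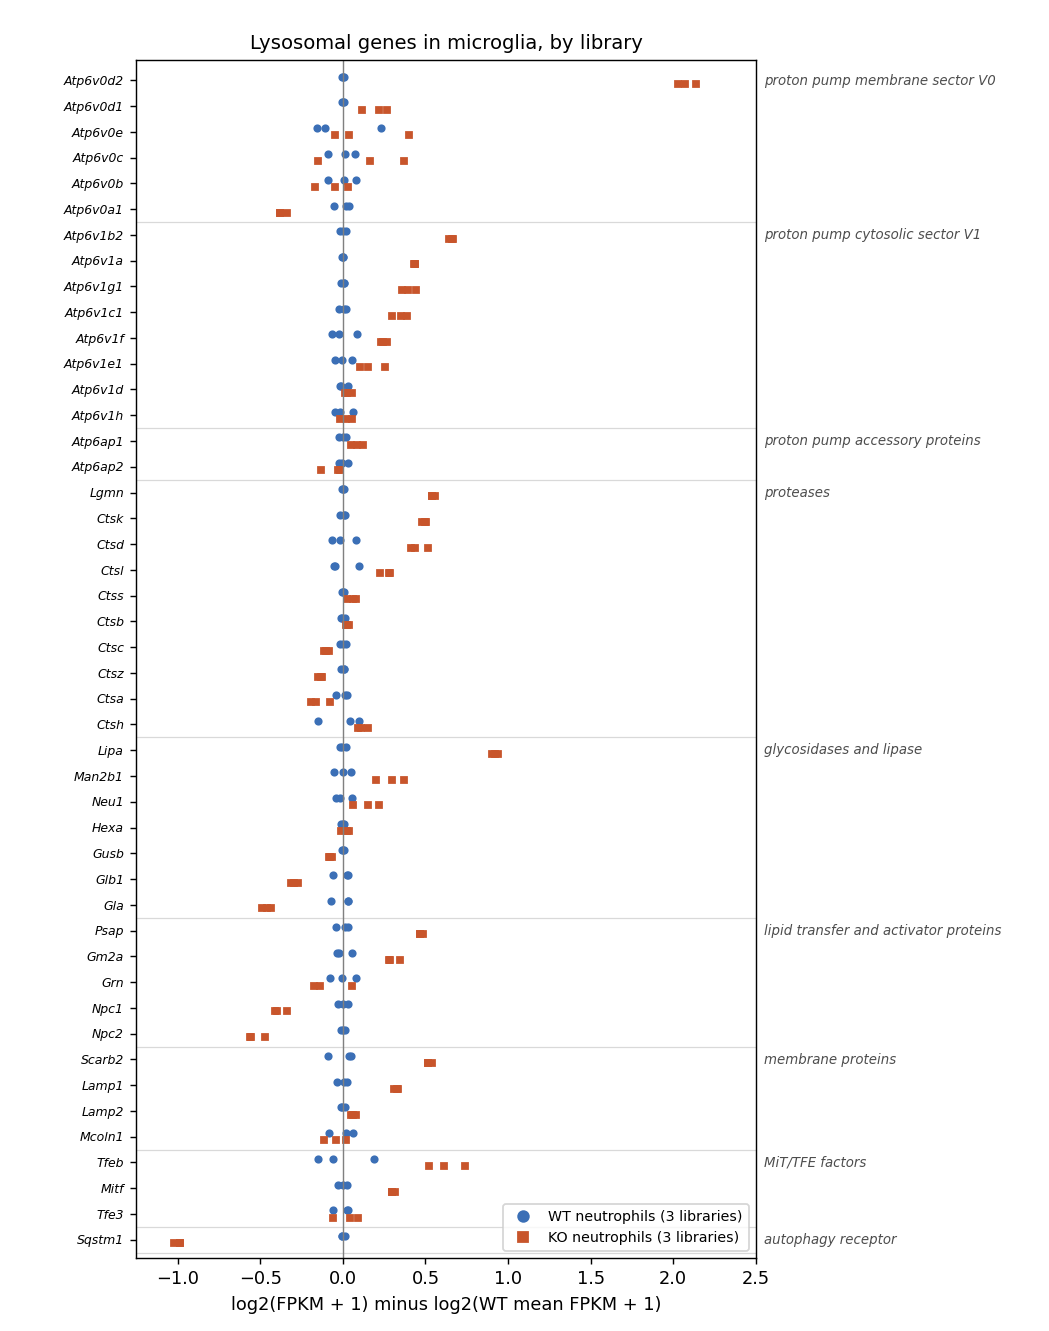
Each lysosomal gene in each of the 6 libraries, as log2(FPKM + 1) minus the log2(WT mean FPKM + 1) of that gene (horizontal axis); circles are the 3 WT and squares the 3 KO neutrophil libraries, and genes are grouped by role. Atp6v0d2 lies farthest to the right (difference 2.08) and Sqstm1 farthest to the left (-0.998), while 37 of the 45 tested genes differ by less than 0.5.

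Many of the lysosomal genes were abundant in both groups. The FPKM of the set made up 1.92%, 1.89% and 1.88% of the total of the WT libraries and 2.03%, 2.06% and 2.01% of that of the KO libraries. The median set gene stood at percentile 93.4 of all tested genes by WT level, and 18 of the 45 were among the top 5%. Cathepsin D was the most abundant member and ranked 42nd of all genes with WT and 31st with KO neutrophils. Cathepsin Z followed at rank 43 in both. At the other end, Tfe3 and Mcoln1 stayed under 5 FPKM and Tfeb under 2 FPKM.

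**Figure D2:**
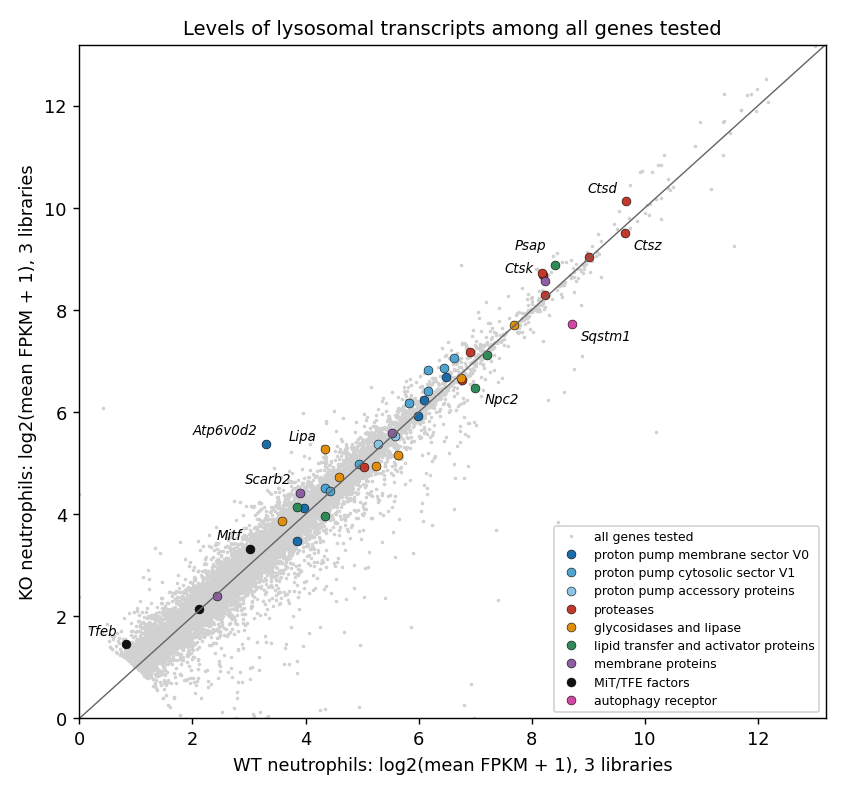
Mean level of each gene with WT (horizontal axis) and KO neutrophils (vertical axis), as log2(mean FPKM + 1) over 3 libraries; small grey points are the 11395 genes tested, coloured points the 45 lysosomal genes by role, and the line marks equal levels. Most lysosomal genes lie high on the diagonal, with Atp6v0d2 and Lipa above it and Sqstm1 and Npc2 below it.

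The proton pump was higher in sum with KO neutrophils. Of its 16 genes, 9 were called higher and 1 lower, beside 24.5% and 18.8% of all genes tested and 54.6% called in either direction among genes of at least 10 FPKM. These counts and those of the other roles describe a set chosen on this contrast. The calls of Atp6v1e1 and Atp6ap1 were lost on the TPM scale and in 4 and 5 of the 6 fits that left out a library. The summed FPKM of the 16 genes was 801, 795 and 783 with WT and 985, 959 and 992 with KO neutrophils, a ratio of 1.23. As a share of each library's total this was 0.252% ± 0.00288 and 0.3005% ± 0.00367 (SD, n = 3 each). The 3 KO sums all lay above the 3 WT sums.

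In the membrane sector V0, 2 of 6 genes were called higher and 1 lower, beside 24.5% and 18.8% of all genes tested. Atp6v0d2 (chr4:19876841-19922605, GRCm38, as for all genes below) encodes a form of subunit d known from osteoclasts and macrophages, and had the widest gap of the set. Its level was 8.84, 8.92 and 8.80 FPKM in WT and 40.5, 39.3 and 42.5 FPKM in KO co-cultures, a ratio of 4.60 and a difference of 2.08 (SE 0.036). Each KO library was thus far above all WT libraries, and Atp6v0d2 ranked 5th by difference among all genes tested. Its ubiquitous counterpart Atp6v0d1 (chr8:105524465-105566047) had 88.3, 88.7 and 87.9 FPKM in WT and 95.8, 106.5 and 103 FPKM in KO co-cultures (difference 0.20, SE 0.040). Atp6v0d2 therefore held 9.10%, 9.14% and 9.10% of the d subunit transcripts with WT and 29.7%, 27.0% and 29.2% with KO neutrophils. The sum of both forms was 97.2 and 142.5 FPKM on average. Atp6v0d1 remained the more abundant form in every library.

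**Figure D3:**
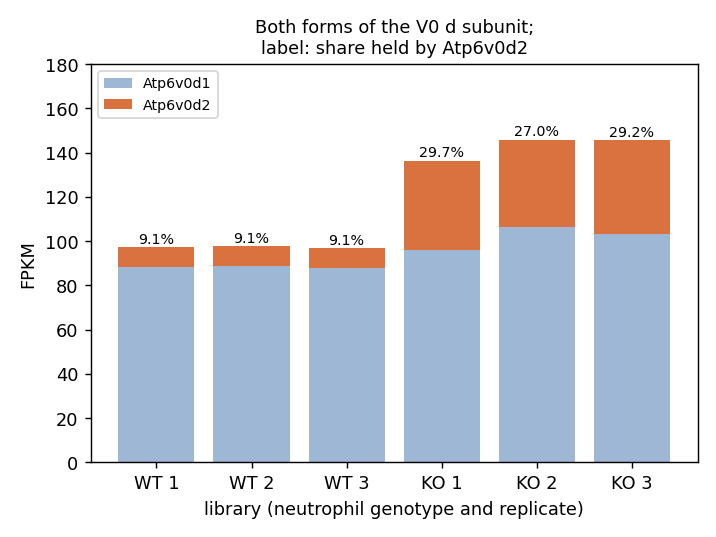
FPKM of Atp6v0d1 and Atp6v0d2, alternative forms of the V0 d subunit, stacked for each library; the label on each bar is the share of the sum held by Atp6v0d2. The share was 9.1% in each of the 3 WT libraries and 27.0% to 29.7% in the KO libraries.

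Atp6v0c (chr17:24163866-24169702), which forms the proton-carrying ring, was spread widely with KO neutrophils. It had 68.2, 63.2 and 70.8 FPKM in WT and 87.3, 60.5 and 75.7 FPKM in KO co-cultures (difference 0.13, SE 0.128), so the groups overlapped. A pseudogene listed as Atp6v0c-ps2 had 60.8, 61.4 and 57.7 FPKM and 78.1, 69.5 and 74.0 FPKM. Reads of such near-identical copies can be split between them by the counting. The sum of both, computed after these values were seen, differed by 0.21. Its lowest KO value, 130.0 FPKM in replicate 2, lay just above the highest WT value of 128.9 FPKM. Of the other V0 genes, Atp6v0b and Atp6v0e overlapped between groups, and Atp6v0a1, the a subunit form listed in the set, was called lower, at 13.4 ± 0.462 against 10.1 ± 0.182 FPKM (SD, n = 3 each; difference -0.37).

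In the cytosolic sector V1, 6 of 8 genes were called higher (24.5% of all genes tested were) and none lower, with differences from 0.02 to 0.66. Atp6v1a (chr16:44085402-44139705) encodes the catalytic subunit A. It had 97.7, 98.4 and 98.4 FPKM in WT and 133.2, 133.2 and 132.4 FPKM in KO co-cultures (difference 0.43, SE 0.017). Its partner in the ATP-splitting head, subunit B2, is encoded by Atp6v1b2 (chr8:69088646-69113711) and had the widest difference of the sector, with 71.6, 70.5 and 69.7 FPKM against 112.6, 110.8 and 112 FPKM (0.66, SE 0.020). Atp6v1g1 (chr4:63544772-63550750), a subunit of the outer stalk, had 87.3, 87.3 and 86.2 FPKM against 114.7, 111.9 and 118.6 FPKM (0.40, SE 0.026). In these 3 genes no KO library came near a WT library. Atp6v1c1, Atp6v1f and Atp6v1e1 were called higher by 0.35, 0.25 and 0.17, and the call of the last was lost on the TPM scale. Atp6v1d and Atp6v1h overlapped between groups, and their small differences of 0.03 and 0.02 turned negative on the TPM scale. The subunits of the sector, which are present in fixed numbers in the assembled pump, therefore differed unequally at the transcript level.

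Both accessory proteins were close between groups. Atp6ap1 (chrX:74297097-74304721), which serves in pump assembly, had 38.1, 38.7 and 37.5 FPKM in WT and 40.5, 41.6 and 39.5 FPKM in KO co-cultures (difference 0.09, SE 0.028), and its call was lost on the TPM scale. Atp6ap2 (chrX:12587801-12617049), also known as the prorenin receptor, had 48.2, 46.3 and 46.9 FPKM against 43.0, 46.5 and 46.2 FPKM (-0.06, SE 0.037). Its groups overlapped.

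**Figure D4:**
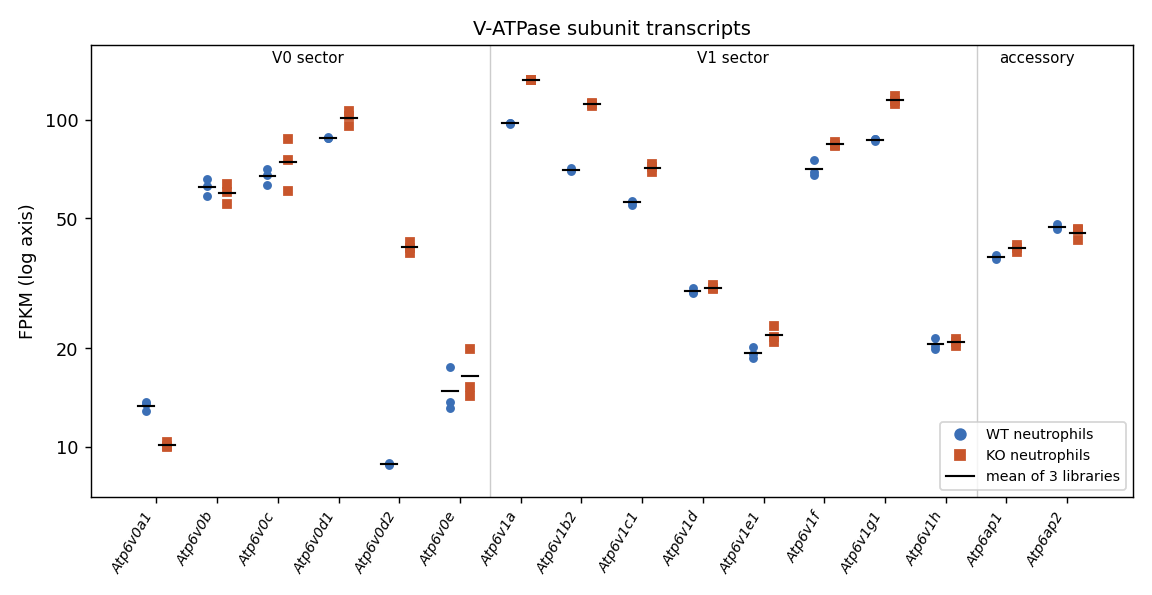
FPKM of the 16 V-ATPase genes on a log axis, with circles for the 3 WT and squares for the 3 KO neutrophil libraries and a line at each mean. Atp6v0d2 shows the widest gap (8.85 and 40.75 FPKM on average), Atp6v1a, Atp6v1b2 and Atp6v1g1 clear gaps, and Atp6v0a1 the only gap downwards.

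Among the 10 proteases, 9 passed the filter. Of these, 4 (44.4%) were called higher and 3 (33.3%) lower, beside 24.5% and 18.8% of all genes tested. Legumain (Lgmn, chr12:102394084-102439813), an asparaginyl endopeptidase that also processes cathepsins, had 289.5, 287.3 and 288.6 FPKM in WT and 425.7, 419.8 and 420.2 FPKM in KO co-cultures (difference 0.55, SE 0.015). The aspartic protease cathepsin D (Ctsd, chr7:142375911-142388038) had 862, 808 and 782 FPKM against 1108, 1167 and 1089 FPKM (0.46, SE 0.043). The shared exon stretch of Ctsd was 227 bases long. Both genes were higher in every KO library than in any WT library. Cathepsin Z (Ctsz, chr2:174427493-174439039), a carboxypeptidase, ran the other way with 803, 802 and 794 FPKM against 733.5, 722 and 729 FPKM (-0.14, SE 0.015). With quantile normalization its difference was -0.05 and it was not called.

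Ctsk and Ctsl, cysteine proteases of which the first is best known from bone resorption, were called higher with differences of 0.49 and 0.27. Ctsk ranked 121st of all genes with WT and 84th with KO neutrophils. Ctsa and Ctsc, the protective protein of the sialidase complex and dipeptidyl peptidase 1, were called lower, with differences of -0.15 and -0.10, and either call was lost when certain single libraries were left out. Ctsb and Ctss were not called, although their KO libraries lay above the WT libraries, and their differences were 0.03 and 0.06. That of Ctsb turned negative on the TPM scale. The antigen-processing protease Ctss and its chromosomal neighbour Ctsk therefore differed unequally. The protease transcripts summed to 3317, 3279 and 3230 FPKM in WT and 3796, 3831 and 3755 FPKM in KO co-cultures, a ratio of 1.16. Ctsd and the pair of Ctsk and Lgmn had the widest gaps in FPKM in this sum.

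The glycosidases and the lipase differed in both directions, with 2 (28.6%) called higher, 3 (42.9%) lower and 2 not called. Over all genes tested 24.5% were called higher and 18.8% lower. Lysosomal acid lipase (Lipa, chr19:34492318-34527474), which frees cholesterol and fatty acids from ingested esters, had 19.2, 19.7 and 19.3 FPKM in WT and 37.5, 38.1 and 37.1 FPKM in KO co-cultures. This was a ratio of 1.94 and a difference of 0.92 (SE 0.026), the second widest upward difference in the set. Hexa (chr9:59539540-59565109), a lysosomal hexosaminidase gene, had 206.9, 207.3 and 205 FPKM against 211.4, 204.5 and 210.1 FPKM (0.02, SE 0.019) and overlapped between groups. Its difference turned negative on the TPM scale and was 0.08, with a call, under quantile normalization. Gusb (chr5:129989011-130003049), beta-glucuronidase, had 106.9, 106.6 and 107.5 FPKM against 101.2, 100.9 and 102 FPKM (-0.08, SE 0.018), a small gap without overlap. Its call was lost with quantile normalization, which gave -0.04, and without the mean-variance trend. The galactosidases Gla and Glb1 were called lower, with differences of -0.46 and -0.29, the mannosidase Man2b1 was called higher by 0.29, and the sialidase Neu1 (0.15) was not called. Despite the shift of Lipa the summed level of these 7 genes was nearly equal in FPKM, at 452.2 and 451.8 on average. As a share of each library's total it was lower in every KO library, at 0.138% to 0.14% against 0.142% to 0.145%.

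Both proteins that pass cholesterol out of the lysosome were lower. Npc2 (chr12:84754562-84773152), the soluble cholesterol carrier, had 127.6, 126.3 and 128.4 FPKM in WT and 91.7, 86.0 and 86.4 FPKM in KO co-cultures (difference -0.53, SE 0.030). Its membrane-bound partner Npc1 had a difference of -0.38, with no overlap. Lipa, which works upstream of them on the same cholesterol esters, was higher, so that members of 1 route differed in opposite directions.

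The sphingolipid activators were higher. Prosaposin (Psap, chr10:60277627-60302597), precursor of the saposins, had 345, 341 and 329 FPKM in WT and 467.5, 474 and 469 FPKM in KO co-cultures (difference 0.47, SE 0.022), and Gm2a, the activator of GM2 breakdown, was higher by 0.31. Granulin (Grn, chr11:102430315-102437048), which travels with prosaposin to the lysosome, had 145.8, 154.8 and 138.3 FPKM against 132.7, 151.9 and 129.7 FPKM (-0.08, SE 0.069). Psap was thus clear of overlap while Grn was not.

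Of the 4 membrane proteins, 2 were called higher and none lower, beside 24.5% and 18.8% of all genes tested. Lamp1 (chr8:13159161-13175338), a main glycoprotein of the lysosomal membrane, had 306, 293 and 302 FPKM in WT and 378, 378 and 373 FPKM in KO co-cultures (difference 0.32, SE 0.021). Lamp2 (chrX:38401357-38456454), its paralogue, had 45.4, 44.9 and 44.7 FPKM against 46.6, 47.6 and 47.0 FPKM (0.06, SE 0.022) and was not called. Scarb2 (chr5:92441314-92506833), the receptor that carries glucocerebrosidase to lysosomes, had 14.3, 13.1 and 14.4 FPKM against 20.7, 20.4 and 20.3 FPKM (0.52, SE 0.044). The calcium channel gene Mcoln1 overlapped between groups at 4.00 to 4.63 FPKM.

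The MiT/TFE factors were scarce. Tfeb (chr17:47737030-47792419), the factor best known for driving lysosomal genes, had 1.01, 0.699 and 0.593 FPKM in WT and 1.71, 1.95 and 1.54 FPKM in KO co-cultures, a difference of 0.63 (SE 0.112) that became 1.10 with a pseudocount of 0.1. Mitf (chr6:97807052-98021349) had 6.96, 7.16 and 7.29 FPKM against 9.12, 8.99 and 8.99 FPKM (0.30, SE 0.036). Tfe3 (chrX:7762560-7775202) had 3.46, 3.18 and 3.43 FPKM against 3.18, 3.64 and 3.50 FPKM (0.03, SE 0.062), with overlapping groups and a sign that turned negative on the TPM scale. These factors are controlled largely by their move into the nucleus, which RNA levels do not show.

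Sqstm1 (chr11:50199366-50210827, of which 580 exon bases overlap Mrnip on the other strand) encodes p62, a receptor that delivers ubiquitinated cargo to autophagosomes and is also induced by stress pathways. It had 423, 419 and 419 FPKM in WT and 211.5, 211.8 and 206.7 FPKM in KO co-cultures, a ratio of 0.50 and a difference of -0.998 (SE 0.017). It was the widest downward gap of the set and ranked 80th of all genes with WT and 185th with KO neutrophils. On the TPM scale the difference was -1.05.

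The wider lysosome was then examined through 7 further lists with 182 genes, none of them in the set. Of these, 149 entered the counts. With KO neutrophils 60 rose (40.3%) and 29 fell (19.5%) at a limma adjusted p under 0.05, beside 24.5% and 18.8% of all genes tested. Mmp9 and Itgb3 passed the filter on low values only through their WT level and were left out of these counts. In either direction 59.7% of the 149 were called, against 43.3% of all genes tested and 54.6% of genes averaging at least 10 FPKM. Some of the 149 lie below that level. The median difference of the 149 genes was 0.12. These lists were also written with earlier results of these data known, so their counts and p-values are not independent support. Some of their genes, such as Cd68, Ctsg and Mmp9, are cell type markers as well. In the named genes Rnasek, Ccdc115 and Hif1a, exons overlap with those of a neighbour of the same orientation in GENCODE M21, and their values are uncertain to that extent. Exons of Slc15a3, Dnase2a, Arsb, Mfsd12, Cd9, Rragc, Ifi30, Hif1a, Atg9b and Plekhm1 overlap a neighbour on the opposite strand.

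Among other V-ATPase subunits and assembly factors, 5 of 10 tested rose (50%) and 1 fell (10%), beside 24.5% and 18.8% of all genes tested. Rnasek, a small pump-associated protein, rose from 7.12, 8.91 and 7.44 to 14.4, 15.8 and 15.6 FPKM (difference 0.89, limma adjusted p = 3.34e-04). The assembly factors Tmem199 and Ccdc115, which act together, moved apart, by -0.53 (limma adjusted p = 1.75e-05) and 0.37 (7.83e-04). Dmxl1, a regulator of the joining of V1 to V0, rose by 0.37 (limma adjusted p = 2.88e-04).

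Of 12 other lysosomal proteases and their inhibitors, 9 rose (75%) and 1 fell (8.33%), beside 24.5% and 18.8% of all genes tested, with a median of 0.37. The list holds enzymes and their inhibitors alike. The cysteine protease inhibitors cystatin C (Cst3) and cystatin B (Cstb) rose by 0.65 (limma adjusted p = 1.30e-04) and 0.40 (3.31e-05). Cst3 had 118.9, 119.3 and 134 FPKM in WT and 191.3, 198.8 and 195 FPKM in KO co-cultures. The dipeptidyl peptidase Dpp7 rose by 0.69 (limma adjusted p = 1.22e-04) and the thiol reductase Ifi30 by 0.54 (5.18e-05).

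Of 36 other glycosidases, lipases and nucleases, 11 were higher (30.6%) and 10 lower (27.8%), beside 24.5% and 18.8% of all genes tested. Their median difference was 0.03. Arylsulfatase B (Arsb), acid ceramidase (Asah1) and the nuclease Dnase2a rose by 0.53, 0.35 and 0.55 (limma adjusted p = 6.92e-05, 5.89e-05 and 2.46e-05). M6pr, a receptor that ferries hydrolases from the Golgi to endosomes, fell by 0.50 on the log2 scale (limma adjusted p = 4.13e-05).

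Among the other membrane proteins, 14 of 35 rose (40%) and 8 fell (22.9%), beside 24.5% and 18.8% of all genes tested. Slc15a3, a histidine and peptide transporter of endolysosomes, fell from 97.1, 96.03 and 99.9 to 16.6, 16.2 and 15.5 FPKM (difference -2.53, limma adjusted p = 7.33e-08). Slc29a3, a lysosomal nucleoside transporter, rose from 6.55, 6.22 and 5.74 to 18.3, 17.9 and 17.3 FPKM (1.39, limma adjusted p = 6.19e-06). The cysteine transporter Mfsd12 rose by 1.05 (limma adjusted p = 5.04e-06) and the tetraspanin Cd9 by 0.78 (1.37e-06).

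In the list on MiT/TFE regulation, 8 of 20 genes rose (40%) and 1 fell (5%), beside 24.5% and 18.8% of all genes tested. Most differences were small (median 0.13). The list also holds genes that are not regulators at the lysosome, such as Gpnmb and Hif1a, the 1 gene that fell. Rragc and Fnip2, parts of the Rag GTPase and folliculin complexes, rose by 0.22 (limma adjusted p = 0.00301) and 0.34 (2.13e-04), and Hif1a fell by 0.22 (0.00107). Gpnmb, a lysosomal glycoprotein known as a MiT/TFE target, rose from 744, 747 and 751 to 989, 984 and 958 FPKM (0.39, limma adjusted p = 1.28e-05).

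Of 30 autophagy genes, 9 were higher (30%) and 7 lower (23.3%), near the shares of all genes tested, with a median of 0.01. Gabarap, Atg9b and Plekhm1 rose by 0.37, 0.59 and 0.76 (limma adjusted p = 2.89e-04, 2.30e-04 and 1.05e-05), and the conjugation factor Atg12 fell by 0.55 on the log2 scale (5.29e-05). Of 18 genes linked to osteoclasts and multinucleation, 10 entered the count. Of these, 7 rose (70%) and Clcn7 and Tm4sf19 fell (20%), beside 24.5% and 18.8% of all genes tested. Left out were Mmp9 and Itgb3, both lower, and 6 genes were under the filter. Tcirg1, Clcn7, Ostm1 and Plekhm1 stand in other wider lists as well. Tnfrsf11a, the RANKL receptor, rose by 0.58 (limma adjusted p = 1.97e-04), and the chloride-proton exchanger gene Clcn7 fell by 0.33 (7.15e-04). Mmp9 had 7.08, 7.11 and 7.21 FPKM in WT and 0.770, 1.06 and 1.13 FPKM in KO co-cultures (difference -2.04). It is a neutrophil marker as well, and it passed the filter only through its WT level, so no test of it is given.

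**Figure D5:**
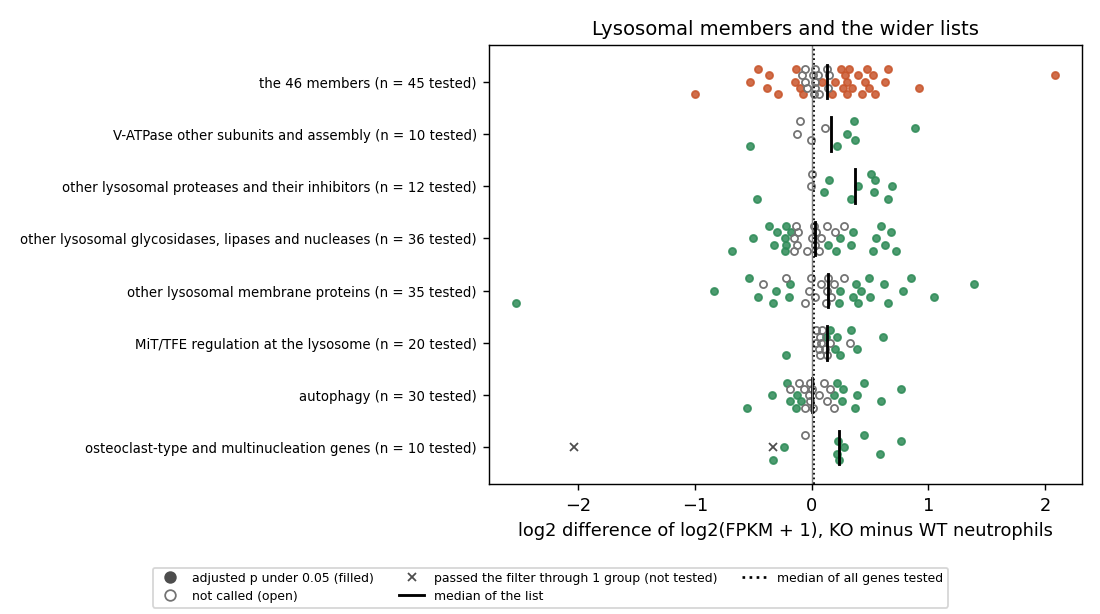
Difference of log2(FPKM + 1), KO minus WT neutrophils (horizontal axis), for each tested gene of the 46-gene set (top) and of the 7 wider lists. Filled points had a limma adjusted p under 0.05 and open points did not. Crosses mark Mmp9 and Itgb3, which passed the filter through 1 group and whose tests are not read (labelled not tested). Tfeb, in the set, also passed through 1 group and is drawn as a filled point. Thick bars mark list medians and the dotted line the median of all genes tested (0.02). Medians run from 0.01 (autophagy) to 0.37 (proteases and inhibitors), and Slc15a3 and Mmp9 lie farthest to the left.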

How the data were processed

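The 6 RNA-seq libraries, 3 per neutrophil genotype, were grouped by sample title. The authors deposited 1 table of FPKM values for 55335 Ensembl identifiers with 1 column per library. The processing notes of the authors name fastp 0.17.1, HISAT2 2.1.0, R 3.4.3 and DESeq2 1.18.1. The counting program, genome build and annotation are not given in the sources used here. Symbols and positions came from GENCODE M21 (GRCm38), which matched 55154 identifiers, and promoters from RefSeq (GRCm38.p6).

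The 11395 genes that averaged 1 FPKM or more were tested on log2(FPKM + 1), KO minus WT, with limma 3.58.1 in R 4.3.3 (lmFit, eBayes, mean-variance trend), with Benjamini-Hochberg adjustment over all of them and a threshold of 0.05. Depth is not given with FPKM. The steps between low values gave 15.6 to 19.3 fragments per library in units of 1e+06, but only 23.8% to 28.8% of low values were whole (within 0.05 of a whole number, 10% by chance), so fragments could not be recovered and no count test was run.

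The members and lists were chosen with earlier results of these data known. Values by library were given for set genes differing by at least 0.5, for the 2 most abundant of each role, for both d subunit forms and for the MiT/TFE factors; up to 4 called genes with the smallest p were named per wider list. Other set genes were named to account for every member. Alternatives were 16 refits (pseudocount, filter, scaling, trend, weights, replicate block, each library left out). The sum of Atp6v0c with its copy and the motif TCACGTGA were added, and Mmp9 and Itgb3 left out of the counts over the wider lists, after seeing the data.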

Additional observations from a re-analysis of the deposited data

How the results depend on the processing

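No called gene of the set or of the wider lists changed sign in any of the 16 refits. Between 27 and 33 set genes were called, 19 to 23 of them higher and 7 to 10 lower, and 3763 to 4931 genes in all. On the TPM scale 29 set genes were called, without Atp6v1e1 and Atp6ap1, the median of the set was 0.08, and 5 uncalled members turned negative (Atp6v1d, Atp6v1h, Ctsb, Hexa and Tfe3). Quantile normalization lost Atp6ap1, Ctsa, Ctsz and Gusb, the fit without the mean-variance trend Atp6ap1 and Gusb, and that without the filter Atp6v1e1 and Atp6ap1. Calls were gained for Hexa and Neu1 by quantile normalization, for Ctss and Neu1 by a common sum without mitochondrially encoded genes, for Neu1 and Lamp2 by a filter at 5 FPKM and for Lamp2 without a filter. Leaving out 1 library gave 4081 to 4229 genes in all, 19 to 22 set genes higher, 8 to 9 lower and a set median of 0.07 to 0.17. The calls lost there were those of Atp6v1e1 (without WT replicate 1 or 3 or KO replicate 1 or 2), Atp6ap1 (without any WT library or KO replicate 1 or 2), Ctsa (without WT replicate 1 or 3 or KO replicate 1 or 3) and Ctsc (without WT replicate 1 or 2 or KO replicate 1 or 2). Atp6v0c, Ctss and Neu1 were called only without KO replicate 2 among these 6 fits. The wider lists had 55 to 58 genes higher and 22 to 25 lower in them.

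Deviations of same-numbered libraries correlated at -0.075, -0.052 and -0.005. With 3 libraries per group these values cannot decide whether same-numbered libraries were paired. A replicate block in the fit left 4212 calls over all genes, 21 set genes were higher and 8 lower, and the wider lists had 57 higher and 24 lower. The block lost the calls of Atp6ap1, Ctsa and Ctsc and gained that of Neu1. A count test had been planned only for recovered fragments and was not run. Tfeb and Ctsh lie near or under 1 FPKM, and the counting error of such low values was not measured.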

Other observations

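Several pump subunits that are known from other tissues were listed at or near 0. Atp6v0a4, Atp6v1e2 and Atp6v1g3 were at 0 in all 6 libraries, and Atp6v1b1, Atp6v1c2 and Atp6v0e2 did not exceed 0.0289 FPKM. The a3 subunit gene Tcirg1, which is used in osteoclasts and macrophages, had 29.3, 27.3 and 27.3 FPKM in WT and 33.7, 32.4 and 31.8 FPKM in KO co-cultures (difference 0.21, limma adjusted p = 0.00616), above Atp6v0a1 and Atp6v0a2 in every library. A value of 0 in this table may be a failed estimate and is not read as absence. The values of Tcirg1 and of these low subunits were picked out after they had been seen.

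Some markers of mature osteoclasts were listed at or near 0, unlike Atp6v0d2, Ctsk and Tcirg1. Calcr was listed at 0 in all libraries, and Acp5 did not exceed 0.237 FPKM. Ocstamp had 0.241, 0.211 and 0.256 FPKM in WT and 1.03, 0.958 and 1.12 FPKM in KO co-cultures, under the filter on low values, and Oscar stayed under 0.6 FPKM. Dcstamp, whose product serves in cell fusion, had 5.44, 5.40 and 6.04 FPKM in WT and 6.15, 7.34 and 6.82 FPKM in KO co-cultures (difference 0.23).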
